A study of Mus musculus with 16 samples.

Results

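The genes described here are 9 mouse genes that interferon induces or that present antigen, namely Gbp2, Gbp3, Irf7, Isg15, Ifit1, Ifit3, B2m, H2-K1 and H2-D1, out of 16593 named genes on the array. They were taken by gene symbol, and the group was chosen by its measured values, because Gbp2 stood high in stress-resilient mice. RNA came from the left and right medial prefrontal cortex (mPFC) of C57BL/6 mice (C57BL/6J in the study's methods) on Illumina MouseRef-8 bead arrays, with 3 arrays per side of resilient mice, 3 per side of susceptible mice and 2 per side of controls, 16 in all. Resilient and susceptible mice had both met aggressive CD-1 males in daily social defeats over 10 days from an age of 8 weeks, and differed in whether they afterwards spent more or less time near such a mouse when it was present than when it was absent. Control mice had not been defeated and were otherwise housed alike. The left and right mPFC of each mouse were taken separately 1 day after that test. The labels give 7 mice per group for the RNA, whereas the study's text gives 8 control, 8 resilient and 7 susceptible mice. The study's results section describes equal amounts of RNA pooled from individual tissues, while its methods call the replicates biological. The spread between arrays may therefore be technical, and the p-values measure only that spread. In bulk tissue, fewer cells of a type and less RNA per cell cannot be told apart.

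Interferons are secreted proteins that act through receptors and Janus kinases on STAT and IRF transcription factors. Type I interferons chiefly drive genes with an interferon-stimulated response element (ISRE), whereas type II interferon, interferon gamma, drives genes with gamma-activated sites (GAS) and acts through IRF1. Guanylate-binding proteins (GBPs) and immunity-related GTPases (IRGs) are GTPases that attack the compartments of intracellular pathogens and respond strongly to interferon gamma. Irf7 amplifies the type I response, Isg15 is a ubiquitin-like modifier, and Ifit1 and Ifit3 are antiviral proteins of the type I response. H2-K1 and H2-D1 are the classical MHC class I heavy chains, and B2m is the light chain that they share.

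The promoters of the 3 GTPase genes other than Gbp2 that were higher in resilient mice are shown with that of Gbp2, because these genes moved together, and that of Ifit1 because it holds the same letters in a gene whose probe was not detected. The sequences are from RefSeq (GRCm38.p6), run from 250 bases before to 50 bases after an annotated transcript start, which need not be the outermost start of the gene, and are written 5′ to 3′ on the strand of the gene. Capitals mark matches on either strand to an ISRE core, GAAANNGAA, or a GAS, TTCNNNGAA, and matches may overlap.
Gbp2, chr3:142620413-142620712, + strand: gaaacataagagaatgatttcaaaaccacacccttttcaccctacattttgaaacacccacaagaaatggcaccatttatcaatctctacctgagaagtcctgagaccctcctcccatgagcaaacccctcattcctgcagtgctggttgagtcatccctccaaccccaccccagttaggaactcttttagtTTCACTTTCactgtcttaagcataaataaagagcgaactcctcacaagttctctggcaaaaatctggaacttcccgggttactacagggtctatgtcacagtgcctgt
Gbp3, chr3:142559794-142560093, + strand: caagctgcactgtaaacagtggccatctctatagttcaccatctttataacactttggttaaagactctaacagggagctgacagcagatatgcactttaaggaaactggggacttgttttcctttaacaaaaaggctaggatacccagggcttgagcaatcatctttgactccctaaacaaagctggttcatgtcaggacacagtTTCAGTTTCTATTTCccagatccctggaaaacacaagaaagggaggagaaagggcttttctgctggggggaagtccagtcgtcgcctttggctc
Igtp, chr11:58199306-58199605, + strand: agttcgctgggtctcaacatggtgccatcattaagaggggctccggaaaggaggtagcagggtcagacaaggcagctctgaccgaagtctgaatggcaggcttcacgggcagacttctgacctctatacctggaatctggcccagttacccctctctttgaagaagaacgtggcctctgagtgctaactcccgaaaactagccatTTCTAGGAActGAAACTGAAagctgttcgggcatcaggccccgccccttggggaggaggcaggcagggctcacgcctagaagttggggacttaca
Irgm2, chr11:58214727-58215026, + strand: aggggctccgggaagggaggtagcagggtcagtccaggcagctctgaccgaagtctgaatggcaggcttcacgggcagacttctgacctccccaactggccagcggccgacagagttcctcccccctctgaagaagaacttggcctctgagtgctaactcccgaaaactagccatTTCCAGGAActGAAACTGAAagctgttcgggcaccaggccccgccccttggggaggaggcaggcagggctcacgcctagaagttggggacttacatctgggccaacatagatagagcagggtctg
Ifit1, chr19:34640639-34640938, + strand: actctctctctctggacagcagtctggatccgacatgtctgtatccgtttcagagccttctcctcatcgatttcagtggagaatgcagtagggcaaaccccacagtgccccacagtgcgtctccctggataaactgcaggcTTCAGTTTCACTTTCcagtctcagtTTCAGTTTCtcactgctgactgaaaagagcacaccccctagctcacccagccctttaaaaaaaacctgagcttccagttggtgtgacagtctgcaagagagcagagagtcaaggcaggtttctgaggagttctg
The ISRE core was present 1 time in the promoter of Gbp2, 2 times in the window of Gbp3 shown, 1 time each in those of Igtp and Irgm2, and 3 times in that of Ifit1. Igtp and Irgm2 also held 1 GAS each. A second RefSeq window of Gbp3, at chr3:142560106-142560405, had 0 of both. Among all 32851 promoters of this length, 8.6% held the ISRE core and 8.3% held the GAS. Of the other members, Isg15 and Ifit3 had 3 ISRE cores and B2m had 1, while the windows of Irf7, H2-K1 and H2-D1 had neither set of letters. A match is a description of the letters and no evidence of binding. Other spellings of an ISRE or GAS were not searched, so a window without a match may still hold such an element.

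Of the 9 members, 4 had a probe with a detection p of 0.05 or less on all 16 arrays: Gbp2, Gbp3, Ifit3 and B2m. These 4 were among the 8419 genes tested in 1 linear model (limma), with p-values adjusted by the Benjamini-Hochberg method over all of these genes and called below 0.05. Log2 changes are given with their standard error (SE) from this fit. It held no term for mouse or pool. Left and right arrays of the same mice thus count as independent, also over both sides. Signals are linear after quantile normalization, unless they are called deposited. The brightest detected neuronal, astrocyte and oligodendrocyte markers were Syt1 at a mean log2 signal of 13.24, Aldoc at 13.27 and Mbp at 14.01, as cortical tissue holds. Arrays of stressed mice had mean deposited signals of 375.7 to 552 in resilient and 380.5 to 502.2 in susceptible mice, against 505.2 to 567.2 in controls. All 4 control arrays, but 2 of 6 arrays of each stressed group, stood in the first 8 columns of the deposited table, which is a position and not a labelled batch.

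Gbp2, the gene whose rise chose the group, was higher in both hemispheres of resilient mice and near the control level in susceptible mice. Its normalized signals were 252, 266 and 266 in resilient left mPFC, 138, 137 and 131 in susceptible left mPFC, and 135 and 122 in control left mPFC. In the right mPFC they were 194, 214 and 206 in resilient mice, 130, 134 and 137 in susceptible mice, and 121 and 127 in controls. All 6 resilient arrays lay above all 10 others, and susceptible and control arrays overlapped on the left but not on the right. Of all genes tested, 33.7% did not overlap between resilient and control arrays on the left and 31.8% on the right, 37.7% and 35.9% between susceptible and control arrays, and 16.9% and 16.6% between susceptible and resilient arrays. The share of all genes with their 6 resilient arrays above the other 10 was not counted, here or below. The log2 difference between resilient and control mice was 1.03 ± 0.07 on the left and 0.72 ± 0.07 on the right, a fold of 2.04 and of 1.65. These signals carry no background subtraction, and the log2 difference was 1.67 on the left and 1.26 on the right after normexp background correction, and 0.71 and 0.47 in the authors' values. Susceptible mice differed from controls by 0.08 on the left and 0.10 on the right on the log2 scale, and from resilient mice by -0.95 and -0.61. These values are a description without a test, since the first of these contrasts chose the gene and the others share its arrays. Within resilient mice the left arrays were above the right ones by 0.36 on the log2 scale. Within susceptible mice, whose arrays did not enter that choice, left minus right was 0.02 ± 0.06 (limma, adjusted p = 0.90). The other Gbp2 probes were detected on 0 arrays, so a single probe carries these values. Gbp2 lies at chr3:142620663-142638008 and Gbp3 at chr3:142560016-142573213 (GRCm38.p6).

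**Figure D1:**
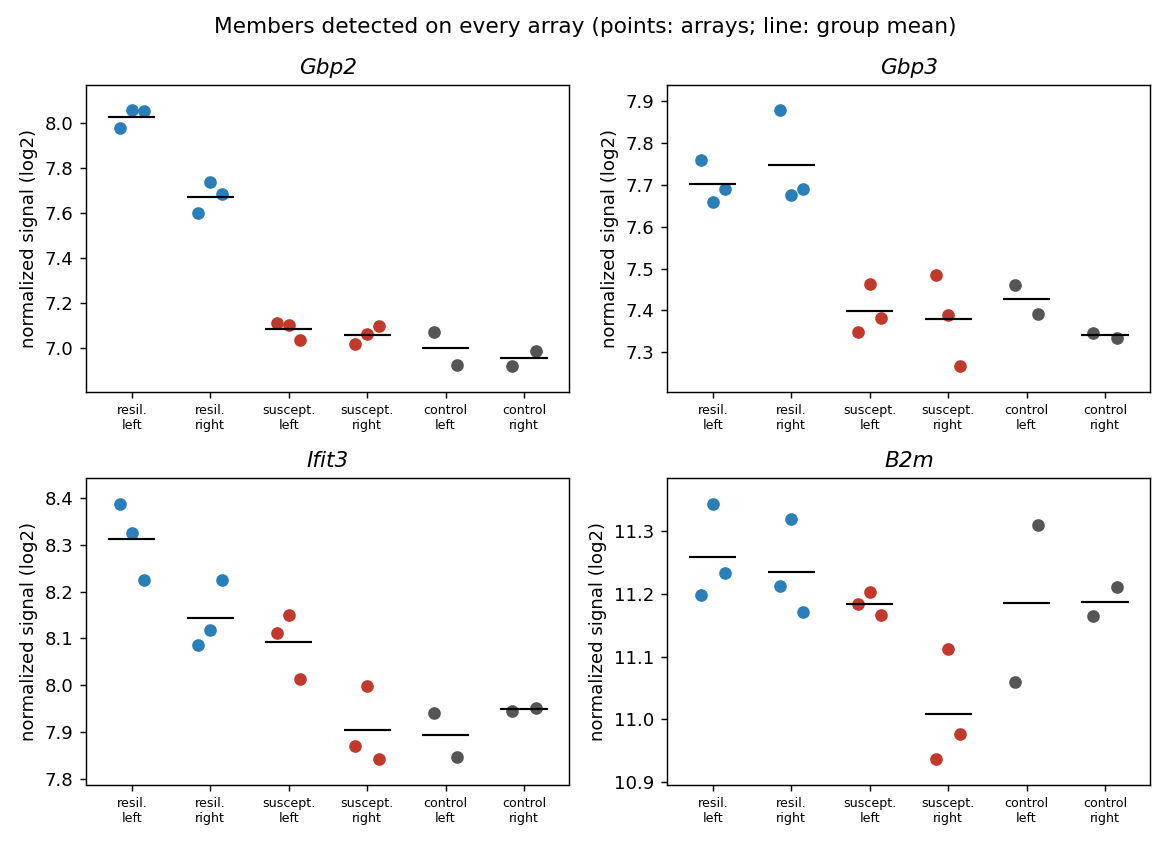
Normalized log2 signal of Gbp2, Gbp3, Ifit3 and B2m on each array (points) with the group mean (line), for resilient, susceptible and control mice, left and right mPFC; the vertical scales differ and do not start at 0. Gbp2 averaged 8.03 in resilient left mPFC and 7.00 in control left mPFC, whereas the B2m arrays of these groups overlap.

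Gbp3, a GBP encoded beside Gbp2, was also higher in resilient mice on both sides. It read 217, 202 and 206 in resilient left mPFC, 163, 176 and 167 in susceptible left mPFC, and 176 and 168 in control left mPFC. Its right mPFC signals were 235, 205 and 207 in resilient mice, 179, 167 and 154 in susceptible mice, and 163 and 161 in controls. On each side the resilient arrays lay above the susceptible and control arrays, while susceptible and control arrays overlapped. Of all genes, 18.3% on the left and 17.6% on the right had all resilient above all control arrays. All susceptible arrays lay below all resilient arrays for 8.15% and 8.91%. Resilient minus control was 0.28 ± 0.07 on the left (limma, adjusted p = 0.042) and 0.41 ± 0.07 on the right (adjusted p = 0.0022). Susceptible minus control was -0.03 on the left (adjusted p = 0.877; 95% interval -0.18 to 0.12) and 0.04 on the right (adjusted p = 0.833; 95% interval -0.11 to 0.19). Tested directly, Gbp3 was lower in susceptible than in resilient mice, by -0.31 ± 0.07 on the left (adjusted p = 0.0077) and -0.37 ± 0.07 on the right (adjusted p = 0.0037). The left call against controls held in 17 of 29 alternative analyses, and was lost without any 1 of the control arrays or of the resilient left arrays (0.24 to 0.31, limma, adjusted p = 0.054 to 0.307). The right call was lost without control right replicate 2 (0.40, limma, adjusted p = 0.064). A second detected Gbp3 probe gave 0.38 on the left (limma, adjusted p = 0.0043) but 0.19 on the right (adjusted p = 0.205).

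Ifit3, of the type I response, was higher in the left mPFC of resilient mice than of controls. The left signals were 335, 321 and 299 in resilient mice, 276, 284 and 258 in susceptible mice, and 246 and 230 in controls. The right signals were 272, 278 and 299 in resilient mice, 234, 256 and 229 in susceptible mice, and 246 and 248 in controls. On the left the 3 groups did not overlap, with susceptible arrays in between, and on the right only the resilient arrays stood clear of the rest. Of all genes, 33.7% on the left and 31.8% on the right did not overlap between resilient and control arrays. Between susceptible and resilient arrays it was 16.9% and 16.6%, and between susceptible and control left arrays 37.7%. Resilient minus control was 0.42 ± 0.07 on the left (limma, adjusted p = 0.0012) and 0.19 ± 0.07 on the right (adjusted p = 0.167). Susceptible minus control was 0.20 on the left (adjusted p = 0.116) and -0.05 on the right (adjusted p = 0.800), and susceptible minus resilient was -0.22 (adjusted p = 0.072) and -0.24 (adjusted p = 0.081), so neither difference between the stressed groups passed the test. The left call was lost without control left replicate 2 (0.37, limma, adjusted p = 0.067). The other detected Ifit3 probes gave 0.10 and 0.14 on the left, and neither passed.

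B2m did not pass the test in any of the 15 comparisons. Its left signals were 2350, 2600 and 2410 in resilient mice, 2330, 2360 and 2300 in susceptible mice, and 2140 and 2540 in controls. Its right signals were 2370, 2560 and 2310 in resilient mice, 1960, 2210 and 2020 in susceptible mice, and 2290 and 2370 in controls. Resilient and control arrays overlapped on both sides, while the 3 susceptible right arrays were below the other right arrays. Of all genes, 17% had all susceptible right arrays below all control right arrays, and 8.91% below all resilient right arrays. Resilient minus control was 0.07 on the left (95% interval -0.08 to 0.23) and 0.05 on the right (95% interval -0.11 to 0.20). Susceptible minus control on the right was -0.18 ± 0.08 (limma, adjusted p = 0.203).

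The other 5 members lay at or near background. Irf7 was detected on 0 of 16 arrays, with deposited signals between 70.5 and 90.3, and Ifit1 on 0 of 16, between 70.2 and 94.0. Isg15 was detected on 14 arrays, at deposited signals of 85.4 to 110.1 in resilient, 87.6 to 107.2 in susceptible and 104.2 to 117.0 in control mice. After normalization its left means were 102.3 in resilient, 100.2 in susceptible and 103.1 in control mice. Its right means were 97.23, 103.5 and 99.14. The H2-D1 probe was detected on 3 of 6 resilient arrays, 3 of 6 susceptible arrays and 0 of 4 control arrays. Its deposited signals overlapped, at 85.2 to 104.7 in resilient mice, 86.7 to 94.9 in susceptible mice and 87.8 to 103.5 in controls. After normalization its left signals were 91.43 to 102.6 in resilient mice, above 86.05 to 88.6 in controls, as 18.3% of all genes tested were. On the right they overlapped, at 88.77 to 97.29 and 87.07 to 93.63. Susceptible arrays read 84.6 to 98.62 on the left and 87.55 to 100.9 on the right. The brighter H2-K1 probe was detected on 2 arrays, 1 of resilient left and 1 of control left mPFC. Fitted without the detection filter, none of the 5 was called, and H2-D1 in resilient minus control left mPFC was 0.16 ± 0.08 (limma, adjusted p = 0.460).

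**Figure D2:**
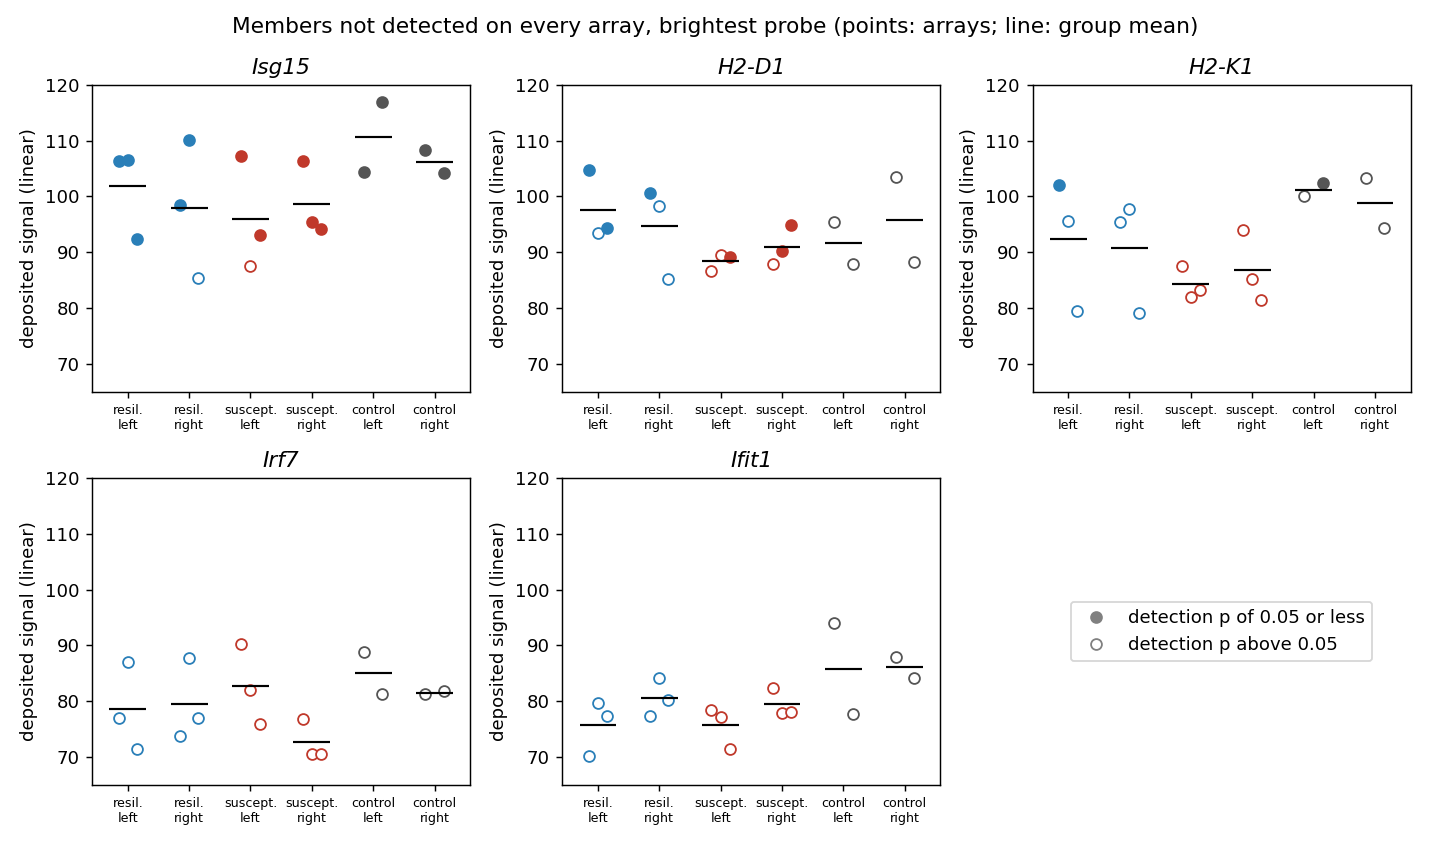
Deposited linear signal of the brightest probe of Isg15, H2-D1, H2-K1, Irf7 and Ifit1 on each array, filled where the detection p is 0.05 or less and open otherwise, with the group mean as a line; the axis starts at 65. These signals are not normalized between arrays. On this scale no group of mice stands apart, and Irf7 and Ifit1 have no filled point.

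Among the 8 members other than Gbp2, of which 3 were tested, 2 were called in resilient minus control left mPFC (Gbp3 and Ifit3, both higher) and 1 in right mPFC (Gbp3, higher). Over all genes tested, 2.7% were called on the left and 2.26% on the right, and 1.37% and 1.18% were called higher. In susceptible minus control, 0 of the 3 were called on either side, where 4.24% of all genes were called on the left and 4.88% on the right. In susceptible minus resilient, Gbp3 was lower on each side, where 2.38% of all genes were called on the left (1.52% lower) and 0.831% on the right (0.57% lower). Over both sides, Gbp3 and Ifit3 were called in resilient minus control (9.54% of all genes) and in stressed minus control (11.2%), and 0 members in susceptible minus control (8.37%). Between left and right, 0 of the 3 were called in susceptible (5.21% of all genes), resilient (0.0356%) or control mice (0.0119%). In the test of the left-right difference itself, 0 of the 3 were called between susceptible and resilient mice (2.15% of all genes called), susceptible and control mice (2.63%) or resilient and control mice (0%, with 329 of 8419 genes at an unadjusted p under 0.05 by limma).

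Most of the tested GTPases related to Gbp2 and Gbp3 were higher in resilient mice. Of 16 GBP and IRG genes on the array, 5 were tested, and of the 4 other than Gbp2, 3 were called higher in resilient than in control mice on each side, where the share of all genes called higher was 1.37% on the left and 1.18% on the right. Their medians were 0.41 on the left and 0.42 on the right, against 0.01 over all genes on each side. In susceptible minus control, 0 of the 4 were called on either side, where 4.24% and 4.88% of all genes were called. In susceptible minus resilient the same 3, Gbp3, Igtp and Irgm2, were lower on both sides. Of all genes, 1.52% were called lower there on the left and 0.57% on the right. Igtp, also called Irgm3, read 197, 206 and 215 in resilient left mPFC, 153, 143 and 145 in susceptible left mPFC, and 143 and 137 in control left mPFC. Its resilient arrays stood above the control arrays of their side, as for 18.3% of all genes on the left and 17.6% on the right. Resilient minus control was 0.55 ± 0.07 on both the left (limma, adjusted p = 1.5e-05) and the right (adjusted p = 2.1e-05). Irgm2, a regulator of IRG proteins, read 206, 214 and 203 in resilient left mPFC, 128, 140 and 143 in susceptible left mPFC, and 136 and 135 in control left mPFC. Resilient minus control was 0.62 ± 0.07 on the left (adjusted p = 4.8e-06) and 0.44 ± 0.07 on the right (adjusted p = 7.4e-04). Susceptible minus resilient was -0.49 ± 0.06 on the left and -0.59 ± 0.06 on the right for Igtp, and -0.60 ± 0.06 and -0.39 ± 0.06 for Irgm2. Scaling each array by its median, in place of quantile normalization, ended the calls of Gbp3, Ifit3, Igtp and Irgm2 in resilient minus control (Ifit3 on the left, the others on each side). With the first 8 arrays alone, the call in susceptible minus resilient was lost for Igtp on the left and for Irgm2 on the right. Irgm1, a bright regulator of the same family, read 6030 to 7010 in resilient mice, 5980 to 6350 in susceptible mice and 5920 to 7460 in controls, and was not called (resilient minus control -0.10 on the left and -0.02 on the right). The remaining 11 genes of the family were not detected on every array, Gbp2b, Gbp4, Gbp8 and Gbp11 on none.

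**Figure D3:**
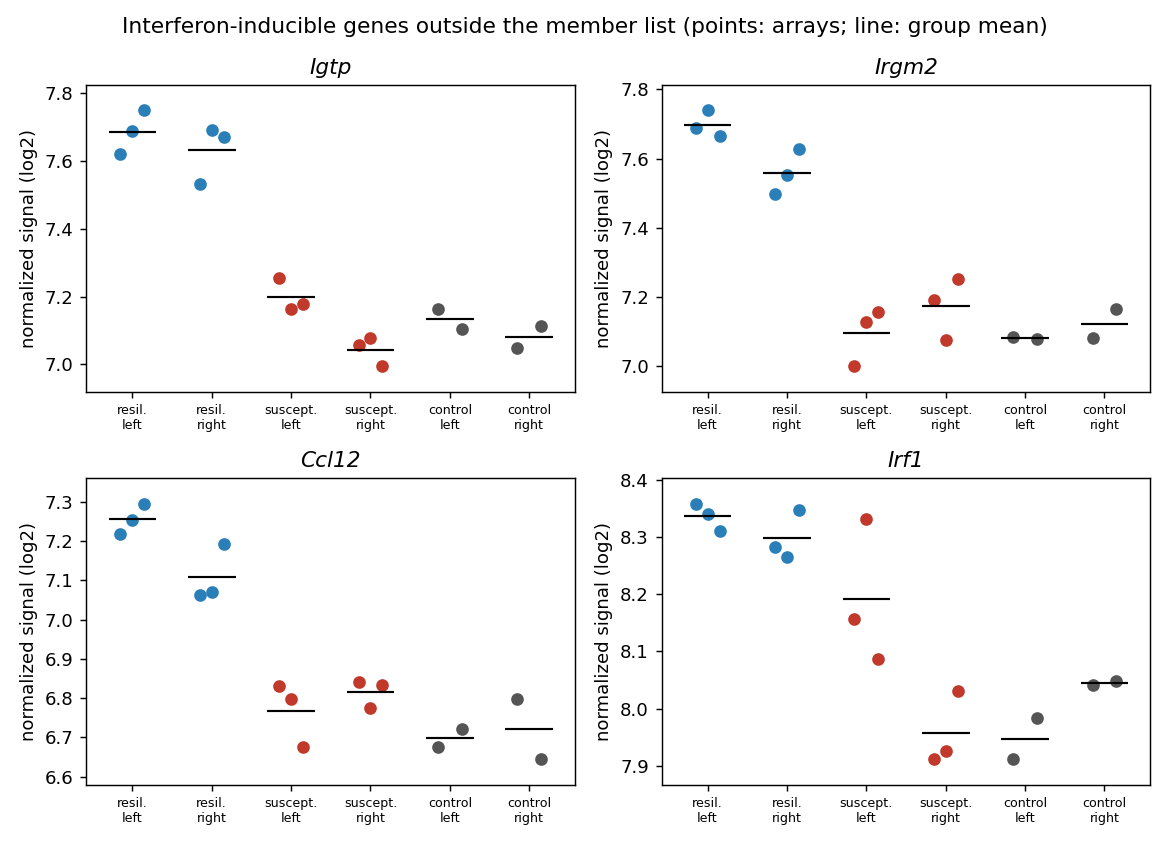
Normalized log2 signal of Igtp, Irgm2, Ccl12 and Irf1 on each array (points) with the group mean (line); the vertical scales differ and do not start at 0. For Igtp, Irgm2 and Ccl12 all 6 resilient arrays lie above the susceptible and control arrays. The share of all genes with this order was not counted, and Ccl12 was chosen by its likeness to Gbp2. All resilient arrays were above all control arrays for 18.3% of all genes on the left and 17.6% on the right. For Irf1 a susceptible left array reaches the resilient range.

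Of the genes of the type I response, 51 were on the array and 17 were tested. In left mPFC, resilient minus control had 3 calls, all of higher signal, and in right mPFC 2 genes rose and 1 fell, with medians of 0.17 and 0.11 (all genes: 2.7% and 2.26% called, medians of 0.01). Over both sides, resilient minus control had 9 of the 17 called higher (Ifitm3, Ifit3, Ifi27, Ifitm2, Irf9, Oasl2, Samd9l, Trim21 and Lgals3bp) and 1 lower (Cmpk2), where 4.58% of all genes were called higher, and susceptible minus control had 2 higher (Psmb10 and Ifitm3) and 1 lower (Cmpk2), where 3.74% were called higher; the difference between the stressed groups over both sides was not tested. The counts over both sides treat left and right arrays of the same mice as independent. The largest of the 9 were Ifitm3 at 0.40 ± 0.05 (limma, adjusted p = 7.3e-06) and Ifit3 at 0.31 ± 0.05 (adjusted p = 2.6e-04). The smallest was Lgals3bp at 0.16 ± 0.05 (limma, adjusted p = 0.0498). Of these 9 calls, 0 held under median scaling, 5 with the position in the deposited table as a block, 6 with the first 8 arrays alone, and 4 to 9 with 1 array left out, fewest without control left replicate 1. In susceptible minus control the calls were 1 higher and 1 lower on the left and 3 higher and 1 lower on the right, with medians of 0.02 and 0.03 (all genes: 4.24% and 4.88% called). Tested directly per side, susceptible minus resilient had 2 of the 17 called lower on the left and 0 called on the right. The medians there were -0.06 and -0.04 (all genes: 2.38% and 0.831% called). Ifitm3, a membrane protein that blocks virus entry, read 469, 500 and 511 in resilient left mPFC, 405, 437 and 454 in susceptible left mPFC, and 350 and 333 in control left mPFC. It was higher on the left in resilient (0.53 ± 0.07, limma, adjusted p = 3.8e-05) and susceptible mice (0.34 ± 0.07, adjusted p = 0.0046) than in controls. Its call on the right in resilient mice (0.26 ± 0.07, adjusted p = 0.045) held in 10 of 29 alternatives. Oasl2, an OAS-like protein, was higher in resilient left mPFC (0.40 ± 0.07, adjusted p = 0.0031) and lower in susceptible than in resilient left mPFC (-0.34 ± 0.07, adjusted p = 0.0025). The call of Oasl2 against controls was lost without control left replicate 1 (limma, adjusted p = 0.054) or 2 (adjusted p = 0.067), and that of Ifitm3 in susceptible left mPFC without control left replicate 2 (adjusted p = 0.094). The calls of Ifi27 and Cmpk2 against controls held in 21 to 25 of 29 alternatives, and each was lost without either control array of its side. Ifi27 was higher in right mPFC of resilient (0.30, adjusted p = 0.014) and susceptible mice (0.28, adjusted p = 0.017) than of controls, and lower in susceptible than in resilient left mPFC (-0.24, adjusted p = 0.037), a call that held in 19 of 29 alternatives. Samd9l, an interferon-inducible antiviral protein, was higher in susceptible right mPFC (0.27, adjusted p = 0.037), a call that held in 17 of 29 alternatives. Cmpk2, a mitochondrial nucleotide kinase, was lower in right mPFC of resilient mice (-0.34, adjusted p = 0.015) and on both sides of susceptible mice (-0.29 left, adjusted p = 0.031; -0.32 right, adjusted p = 0.014) than in controls. Of the list, 12 genes were detected on no array, among them Mx1, Oas1a, Oas2 and Oas3.

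**Figure D4:**
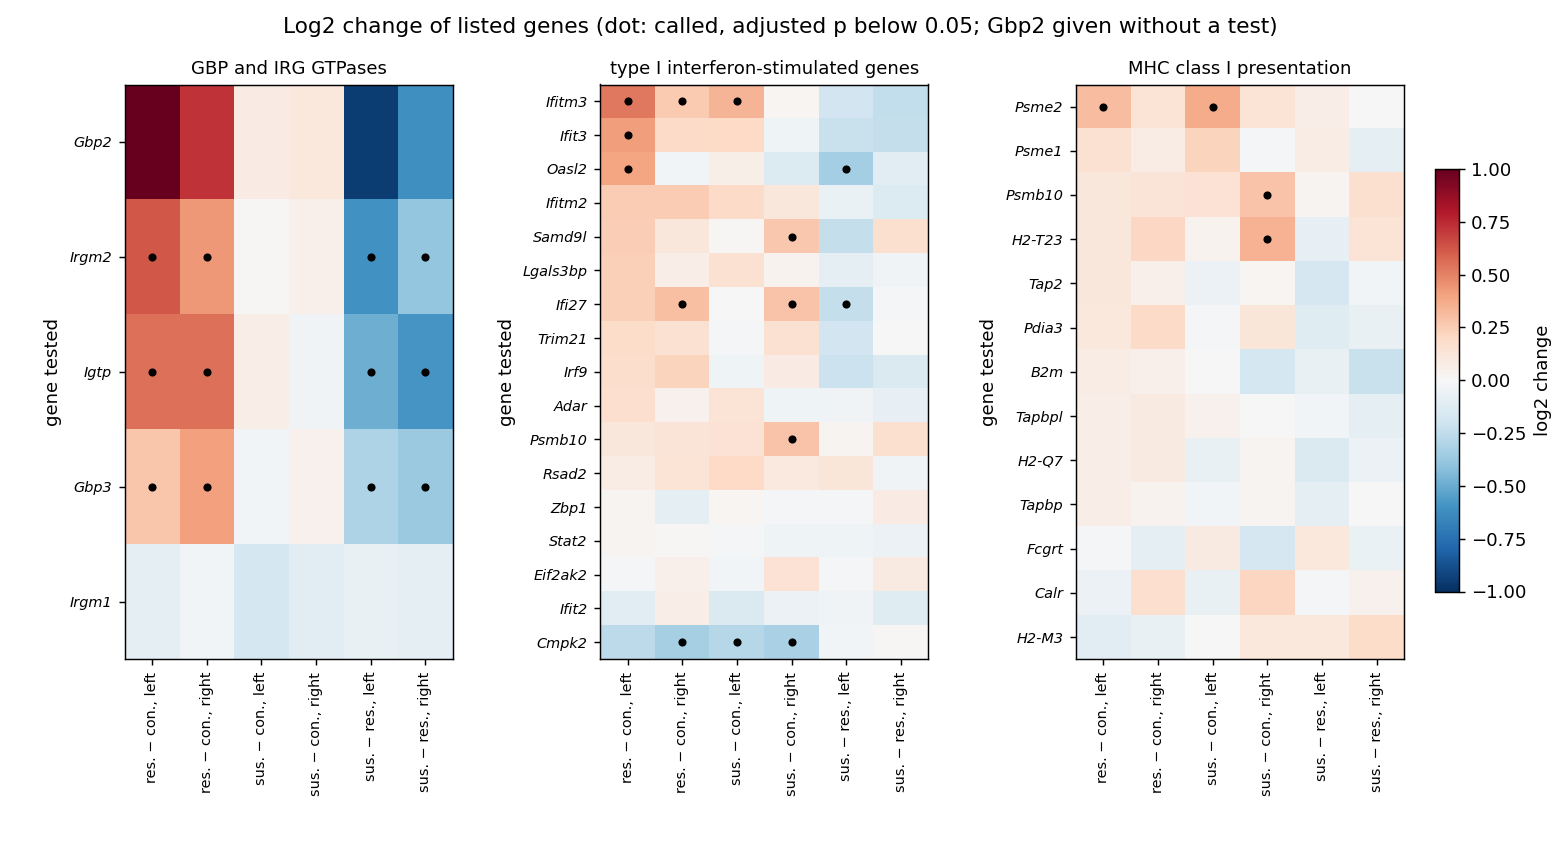
Log2 change of each tested gene (rows) of the GBP and IRG GTPases, the type I interferon-stimulated genes and the MHC class I genes in 6 comparisons (columns; res., resilient; sus., susceptible; con., control), red for higher and blue for lower, with a dot where the adjusted p was below 0.05 and no test for Gbp2. Dots in both resilient minus control columns belong to Gbp3, Igtp, Irgm2 and Ifitm3.

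Of the genes of interferon signalling, 22 of 31 were tested. Resilient minus control had 1 called higher and 1 lower on the left and 0 on the right, with medians of 0.04 and 0.01. Susceptible minus control had 2 higher and 1 lower on the left and 1 lower on the right, with medians of 0.03 and -0.02. Susceptible minus resilient had 0 on the left and 1 lower on the right. Of all genes, 2.7% and 2.26%, 4.24% and 4.88%, and 2.38% and 0.831% were called in these comparisons. Irf1, a transcription factor induced by interferon gamma, was higher in resilient (0.39 ± 0.07, limma, adjusted p = 0.0023) and susceptible left mPFC (0.24 ± 0.07, adjusted p = 0.047) than in control left mPFC, and lower in susceptible than in resilient right mPFC (-0.34 ± 0.06, adjusted p = 0.0042). Its call in susceptible left mPFC held in 11 of 29 alternatives, and that in resilient left mPFC was lost without control left replicate 1 (limma, adjusted p = 0.116). Jak1, a kinase of the interferon receptors, was lower in left mPFC of resilient (-0.51 ± 0.10, adjusted p = 0.0037) and susceptible mice (-0.64 ± 0.10, adjusted p = 2.3e-04) and in right mPFC of susceptible mice (-0.41 ± 0.10, adjusted p = 0.012) than in controls. The calls of Jak1 held in 27, 29 and 23 of 29 alternatives. Pias3, an inhibitor of STAT3, was higher in susceptible left mPFC (0.27, adjusted p = 0.018). The probes of the interferon genes Ifnb1, Ifng and Ifna4 were detected on no array.

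Of 31 MHC class I antigen presentation genes, 13 were tested, and in resilient minus control 1 was called higher on the left and 0 on the right, with medians of 0.07 and 0.09, where 1.37% and 1.18% of all genes were called higher. In susceptible minus control 1 was called on the left and 2 on the right, all higher, where 4.24% and 4.88% of all genes were called. Over both sides, 2 were higher in resilient (Psme2 and Pdia3) and 3 in susceptible mice (Psme2, Psmb10 and H2-T23), where 4.58% and 3.74% of all genes were called higher. The left call was Psme2, a proteasome activator subunit, at 0.31 ± 0.07 in resilient (limma, adjusted p = 0.013) and 0.37 ± 0.07 in susceptible left mPFC (adjusted p = 0.0018). H2-T23, a nonclassical class I heavy chain, was higher in susceptible right mPFC (0.35 ± 0.08, adjusted p = 0.010), as was Psmb10, an immunoproteasome subunit (0.29 ± 0.07, adjusted p = 0.021). These 4 calls held in 21 to 26 of 29 alternatives, and each was lost without 1 or either of the control arrays of its side. In susceptible minus resilient, 0 of the 13 were called on either side, where 2.38% of all genes were called on the left and 0.831% on the right. Among the MHC class II (4 tested), nucleic acid sensing (7), pan-reactive astrocyte (5) and NF-kB genes (5), 0 were called in any comparison of 1 side with control. Of all genes, 2.7% and 2.26% were called there in resilient mice, and 4.24% and 4.88% in susceptible mice. Over both sides, 1 class II gene was called higher in resilient minus control (4.58% of all genes). In susceptible minus control 1 was called lower (4.63%), as was 1 in stressed minus control (5.96%). Of the A1-type reactive astrocyte genes, a list that holds Gbp2 itself, 4 were tested, and besides Gbp2 Amigo2, an adhesion protein, was called in resilient left mPFC (0.33 ± 0.08, adjusted p = 0.023) and H2-T23 in susceptible right mPFC.

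Over the 16 arrays, the genes tested with the signal most like that of Gbp2 were Irgm2 (Pearson r 0.962), Ccl12 (0.959), Igtp (0.956), H2ac12 (0.929) and H2ac15 (0.893), and the least like were A2ml1 (-0.882), Vamp1 and Tipin (both -0.854). These correlations are a description over arrays that share groups. Within groups, r with Gbp2 was 0.16 for Irgm2, 0.06 for Ccl12 and 0.66 for Igtp. Ccl12, a chemokine for monocytes, read 149, 153 and 157 in resilient left mPFC, 114, 111 and 102 in susceptible left mPFC, and 102 and 106 in control left mPFC. Its resilient arrays were above the control arrays of their side, as for 18.3% of all genes on the left and 17.6% on the right. Resilient minus control was 0.56 on the left and 0.39 on the right, values given without a test because likeness to Gbp2 chose the gene. Among the members, r with Gbp2 was 0.855 for Ifit3, 0.846 for Gbp3 and 0.481 for B2m, and 652 genes were more like Gbp2 than B2m was.

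Markers of other cells moved in part with these groups, and their part in the results was not tested. Of all genes tested, 1.37% were called higher and 1.33% lower in resilient minus control on the left, and 1.18% and 1.08% on the right. In susceptible minus control, 1.91% were called higher and 2.33% lower on the left, and 2.3% and 2.58% on the right. Of the blood leukocyte markers, 5 of 17 were tested, and 2 (S100a8 and Lyz1) were higher in resilient left mPFC and 0 in resilient right mPFC. Their summed signal was 3106 to 3233 in resilient left and 2741 to 2991 in resilient right mPFC, 2967 to 3209 in susceptible left and 2591 to 2697 in susceptible right mPFC, and 2589 to 2787 in control left and 2647 to 2892 in control right mPFC, with Lyz1 called higher in susceptible left mPFC, while Ptprc, Cd3d, Cd79a and Ccr2 were detected on no array. Coro1a made up most of the leukocyte sum, at a normalized signal of 2215 against 291.8 for Lyz1 and 141.5 for S100a8. Of 3 red blood cell markers tested, 2 were higher in resilient mice on each side and 3 in susceptible mice. Their sums were 6898 to 8011 in resilient, 7919 to 10533 in susceptible and 4643 to 4968 in control mice. Of 16 microglia markers, 0 were higher in resilient mice on either side, and 2 on the left and 1 on the right were lower. Their sums were 5839 to 6107 in resilient, 5660 to 6085 in susceptible and 5805 to 6266 in control mice. Of 13 endothelial and pericyte markers, 0 were called in resilient mice, and 3 were higher in susceptible left mPFC and 0 called in susceptible right mPFC. Their sums were 5870 to 6231 in resilient, 5895 to 6416 in susceptible and 5543 to 6007 in control mice. Of 10 astrocyte markers, 0 were higher and 1 was lower on each side in resilient mice, and 1 on the left and 3 on the right were lower in susceptible mice. Of 11 oligodendrocyte markers, 2 on the left and 5 on the right were higher in resilient mice, while in susceptible mice all 11 were lower on the left and 5 were higher on the right. Their sums were 37034 to 39604 in resilient mice, 24853 to 25229 in susceptible left and 37199 to 37768 in susceptible right mPFC, and 32187 to 35818 in control mice. Of 5 meningeal fibroblast markers, 2 were higher in resilient left mPFC and 0 called in resilient right mPFC, while in susceptible mice 5 were higher on the left and 4 were lower on the right, with medians of 0.43 and -0.48. Their sums were 1654 to 1760 in resilient mice, 1969 to 2061 in susceptible left and 1294 to 1350 in susceptible right mPFC, and 1484 to 1731 in control mice. Ifitm3, Irf1, Pias3 and Psme2 were called higher in susceptible left mPFC, and H2-T23, Psmb10, Ifi27 and Samd9l in susceptible right mPFC.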

How the data were processed

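The 9 members, the gene lists and the tests were chosen with earlier results of these data known. The deposited intensity is the mean bead signal per probe on a linear scale, without background subtraction, from 51.9 to 37310; GenomeStudio 1.0.6, lumi and limma are named in the submitters' processing notes. The deposited detection score was subtracted from 1 to give a detection p. A second table of the authors holds lumi-normalized log2 values, whose step that narrows low signals is not stated and whose differences at low signal are therefore compressed; these were used as an alternative. The build used upstream is not given in the sources used here. Columns that belong to no sample number 0.

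Linear signals were log2-transformed, then quantile normalization was run (limma 3.58.1; R 4.3.3). Of 25697 probes, 23978 had 1 gene symbol in the platform annotation, 1719 none and 0 several. Probes detected (p of 0.05 or less) on all 16 arrays were kept, and the brightest stood for its gene. A model of 6 group means was fitted with lmFit and eBayes (10 residual and 16 prior degrees of freedom, prior SD 0.0826), with 15 contrasts, Benjamini-Hochberg adjustment over 8419 genes and a threshold of 0.05. The procedure was tested on simulated data. Plots used matplotlib 3.10.9 (Python 3.11.15). The number of arrays limits the precision. No 2 arrays were identical.

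The text names every member; of each list the genes called in stressed against control mice or between the stressed groups, up to 4 with the largest change per comparison; the 5 genes most and the 3 least correlated with Gbp2; and bright cell type markers. Alternatives were median scaling, cyclic loess, the authors' values, normexp background correction, other filters and probe rules, array weights, a trended variance, blocks and each array left out. Fitting each further probe of a member was chosen after seeing the data.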

Additional observations from a re-analysis of the deposited data

Results flagged for a closer look

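The effect of defeat on Gbp3 differed between the stressed groups in a direct test of the difference. Susceptible minus resilient was -0.31 on the left and -0.37 on the right on the log2 scale, with all 3 susceptible arrays below all 3 resilient arrays on each side. Of all genes, 8.15% on the left and 8.91% on the right were separated in this direction. The call held in 28 of 29 alternatives on the left and 27 of 29 on the right, and was lost under median scaling on both sides and on the right with the first 8 arrays alone. With 2 or 3 arrays per group, no single array could be tested as standing apart.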

How the results depend on the processing

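Each result was recomputed under 29 alternatives, 16 of them leaving out 1 array. The log2 difference of Gbp2 between resilient and control mice, which chose the gene, ran over them from 0.71 to 1.67 on the left and from 0.47 to 1.26 on the right. Scaling each array by its median moved the median of all genes by -0.16 in resilient left and -0.12 in resilient right minus control, and by -0.20 and -0.14 in susceptible mice, and few genes were called under it (2 of 8419 on each side in resilient mice). Under it the members other than Gbp2 that were called numbered 0 instead of 2 in resilient left minus control left, 0 instead of 1 on the right, 0 instead of 2 over both sides, 1 instead of 0 in susceptible minus control over both sides (B2m, lower), 0 instead of 2 in stressed minus control, and 0 instead of 1 in susceptible minus resilient on each side. Igtp and Irgm2 also lost their calls against control under it. Over both sides it also ended all 9 calls of higher type I interferon genes in resilient mice, and turned the sign of Ifitm3 (-0.036), Psmb10 (-0.028) and H2-T23 (-0.024) in susceptible minus control, and of Pdia3 (-0.055) and H2-DMa (-0.016) in resilient minus control. The left count in resilient mice was 1 with the authors' values, with normexp, with no filter and with probes detected on at least 2 arrays, and 0 to 2 with 1 array left out. The right count was 0 to 1 with 1 array left out, being 0 without control right replicate 2. The count for stressed minus control was 1 with the mean over probes, 1 with the position in the deposited table as a block, and 0 to 2 with 1 array left out. With the first 8 arrays alone, 0 members were called in susceptible minus resilient on the right. The cause was not tested.

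Arrays with the same replicate number did not deviate together throughout (r of left with right -0.02 to 0.34 in resilient mice and 0.09 to 0.19 in susceptible mice), so the numbers were not taken to pair them. With the replicate block, 2 members other than Gbp2 were called on the left and 1 on the right in resilient minus control, and Gbp3 was 0.30 on the left (limma, adjusted p = 0.017). The block changed no count of members called. Signal over background limited the test to 4 members, since 5 of 9 were not detected on every array.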

Other observations

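Among the genes most like Gbp2 over the arrays, H2ac12 and H2ac15 encode histone H2A and belong to none of the interferon lists. H2ac12 read 214, 241 and 229 in resilient left mPFC, 185, 172 and 188 in susceptible left mPFC, and 187 and 174 in control left mPFC. On the right it read 230, 227 and 229 in resilient mice, 182, 175 and 188 in susceptible mice, and 174 and 181 in controls. Resilient minus control was 0.34 on the left and 0.36 on the right for H2ac12, and 0.31 and 0.21 for H2ac15. Both genes were chosen by their likeness to Gbp2 on the same arrays, so these values are a description without a test. Histone genes of a cluster are near-identical, so the probes may not tell them apart.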
